A study of Mus musculus with 115 samples.

Results

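A set of 10 genes is described here, out of 45699 in the expression table: the basal keratins Krt5, Krt14, Krt15 and Krt17, the luminal keratins Krt8, Krt18 and Krt19, the keratins Krt7 and Krt4, and Trp63, which encodes the transcription factor p63. They were taken by name as genes that mark the cell layers of the prostate epithelium, with earlier results of these data known. Their transcript levels were followed over every library of the series and were set against 3 further genes: Chga (chromogranin A, a protein of neuroendocrine secretory granules), Mki67 (the proliferation antigen Ki-67) and Tgm4 (prostate transglutaminase, a secretory product of the prostate). All 10 genes were in the table under 1 identifier each, and all 10 passed the filter on low values.

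Every library came from a male F2 mouse that carried the TRAMP transgene, in which SV40 T antigen is driven in prostate epithelium by a minimal probasin promoter that responds to androgen. The F2 mice descended from C57BL/6 TRAMP females and WSB/EiJ males, through transgene-positive F1 females and F1 males without the transgene. The labels call the tissue prostate tumor and give no age, treatment, tumour weight or histology for any mouse, so that all libraries belong to 1 group with no condition to compare. RNA was taken from bulk tissue, and from the ventral prostate where a prostate was small.

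Keratins are the intermediate filament proteins of epithelial cells and assemble only as pairs of a type I protein (here Krt14, Krt15, Krt17, Krt18 and Krt19) with a type II protein (Krt5, Krt7, Krt8 and Krt4). In the normal prostate, Krt5 and Krt14 mark the basal layer, which also needs p63, while Krt8 and Krt18 mark the secretory luminal cells that face the lumen. Krt19 and Krt15 are found in intermediate or subset populations, Krt17 is a keratin of basal and stressed epithelium, Krt7 is abundant in ductal and urothelial cells, and Krt4 pairs with other keratins in stratified, non-cornified epithelium. In bulk tissue, fewer cells of a type and less RNA per cell cannot be told apart.

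In the GENCODE annotation of GRCm38, the type I genes Krt15 (chr11:100131758-100135928), Krt19 (chr11:100140810-100148665), Krt14 (chr11:100203162-100207548) and Krt17 (chr11:100256217-100261029) all lay on the minus strand of chromosome 11. The type II genes lay on chromosome 15, with Krt7 on the plus strand (chr15:101411043-101430313) and Krt5 (chr15:101707070-101712898), Krt4 (chr15:101918535-101924735) and Krt8 (chr15:101996698-102004482) on the minus strand. Krt18 is the exception among the type I genes: it lay on chromosome 15 on the plus strand (chr15:102028180-102032027), 23697 bases from Krt8 with no annotated gene between them. Trp63 spanned 208340 bases of chromosome 16 (chr16:25683763-25892102, plus strand) in 16 merged exons. Exons of Krt5, Krt8 and Krt7 each overlapped 1 annotated transcript of the opposite strand (a microRNA, a lincRNA and an antisense RNA). The kit used does not mark strand as far as its description goes, so reads in those overlaps cannot be assigned to either strand. A processed pseudogene of Krt8 aligned over 48.1% of its transcript at 98.6% identity; it was not among the rows of the table.

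The reference sequence before the start of 3 of the genes is shown because Krt5 was the keratin that followed Trp63 most closely, and because Krt8 and Krt18 are neighbours whose transcripts moved together. The sequences are RefSeq's for GRCm38.p6, read 5′ to 3′ on the strand of the gene, and end before the first transcribed base of both RefSeq and GENCODE. The F2 mice also carry WSB/EiJ alleles, which can differ. Capitals mark a match to the half-site of the p53 family, to which p63 belongs.
Krt5, chr15:101712906-101713155, minus strand: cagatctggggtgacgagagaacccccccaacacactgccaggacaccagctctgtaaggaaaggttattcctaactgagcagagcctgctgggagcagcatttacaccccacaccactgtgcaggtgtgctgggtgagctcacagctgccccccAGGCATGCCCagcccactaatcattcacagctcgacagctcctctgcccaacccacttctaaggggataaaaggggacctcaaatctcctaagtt
Krt8, chr15:102004483-102004592, minus strand: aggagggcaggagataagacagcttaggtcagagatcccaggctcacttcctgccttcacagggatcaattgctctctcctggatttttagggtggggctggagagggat
Krt18, chr15:102027966-102028179, plus strand: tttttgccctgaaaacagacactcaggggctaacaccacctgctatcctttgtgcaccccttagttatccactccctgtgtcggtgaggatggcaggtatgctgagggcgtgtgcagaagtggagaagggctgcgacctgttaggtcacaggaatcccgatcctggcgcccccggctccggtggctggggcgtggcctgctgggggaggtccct
The half-site motif, which reads the same on both strands, was searched in the 250 bases before the RefSeq start of every gene. Krt5 held 1 match, AGGCATGCCC, from 95 to 86 bases before its start, and Krt8, Krt18 and Krt7 held 0 in these windows. Of 32817 promoter windows of this length, 2338 (7.12%) held a match. The motif was chosen after the expression values were seen, and a match is a description of the letters, not a binding site.

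Over all libraries (79 and 36 in the parts defined below), the luminal keratins were the most abundant of the 10 transcripts and Krt17 and Trp63 the least. Values are in TPM, a transcript abundance that divides by transcript length and by the sum of each library. Krt18 had a median of 298.38 TPM (0.18 to 748.89), Krt19 a median of 175.61 TPM (0 to 726.73) and Krt8 a median of 167.86 TPM (0.14 to 630.5). These 3 keratins made up a median of 89.7% of the summed TPM of the 9 keratins. Krt15 (median 13.17 TPM, highest 145.76), Krt4 (13.15 TPM, highest 191.97) and Krt7 (5.99 TPM, highest 203.26) followed. The classical basal pair was low, with a median of 4.85 TPM for Krt14 (highest 20.64) and 4.32 TPM for Krt5 (highest 30.58). Trp63 had a median of 1.64 TPM and never passed 6.64 TPM, and Krt17, at a median of 1.47 TPM, reached 55.37 TPM. A 0 in these files can be a failed estimate rather than an absent transcript.

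Of the 9 steps in this order, 6 passed a two-sided sign-flip permutation test of the log2 difference within libraries (pseudocount 1, Benjamini-Hochberg adjusted over the 9 steps). Only the steps from Krt8 to Krt15 (3.26 ± 1.94 log2, SD over libraries, Krt8 higher in all but 1) and from Krt5 to Trp63 (0.82 ± 0.64 log2, Krt5 higher in 95) were larger than their spread between libraries. Krt19 and Krt8 did not differ by this test (adjusted permutation p = 0.185), nor did Krt14 and Krt5 (adjusted permutation p = 0.185) or Trp63 and Krt17 (adjusted permutation p = 0.0763). Krt15 and Krt4 had nearly the same median, but Krt4 was the higher of the pair in most libraries (Krt15 was higher in 42, mean log2 difference -0.41 ± 1.68, adjusted permutation p = 0.015). The order differed within the parts of the libraries defined below: Krt19 was above Krt8 in 65 of 79 libraries of the larger part (mean log2 difference 0.30, adjusted permutation p = 1.8e-05) and below it in 29 of the 36 of the smaller part (-1.16, adjusted permutation p = 0.000108). Trp63 and Krt17 differed by 0.20 log2 in the larger part (adjusted permutation p = 0.0963) and by -1.24 in the smaller, where Krt17 was the higher (adjusted permutation p = 2.25e-05).

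**Figure D1:**
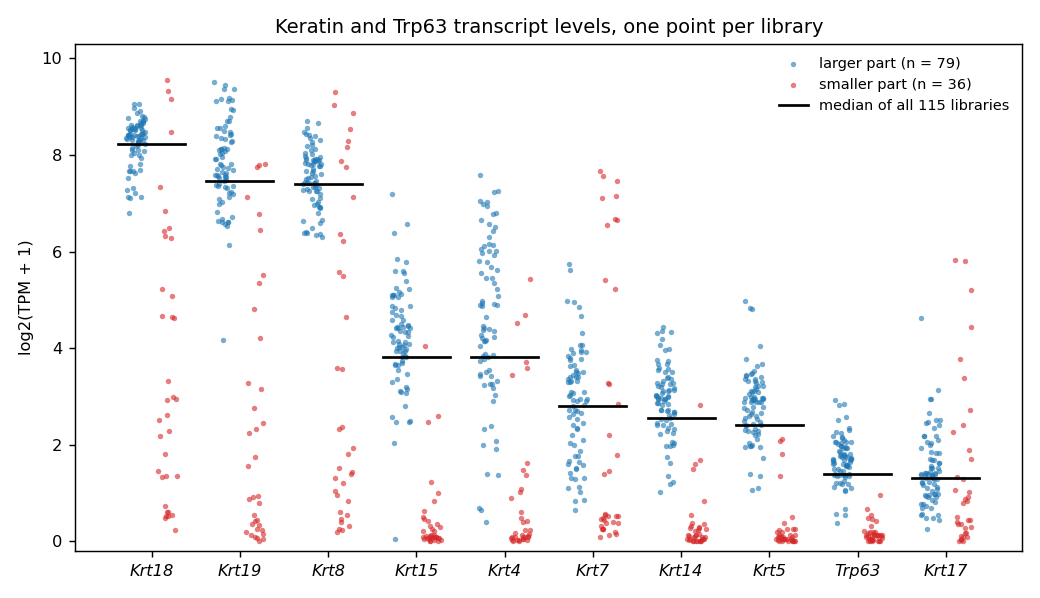
Transcript level of each gene on the log2(TPM + 1) scale, 1 point per library, with genes in order of the median over all libraries (black bar). Points are coloured by the 2 parts into which the first principal component of the other genes divides the libraries; Krt5, Krt14 and Trp63 are low in the smaller part, as is Krt15 in most of its libraries, while Krt8, Krt18 and Krt7 range there from near 0 to the highest values of the series.

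The libraries do not form 1 cloud. The first principal component of the 14610 other genes over the filter, with the 10 genes and the 3 reference genes left out, took 48.5% of the variance and divided the libraries into a larger part of 79 and a smaller part of 36, and the same libraries fell in each part when all 14623 genes were used. The division was read from the data and is not a group of the study, so levels are not tested across it and each correlation is given within 1 part. Chga was at most 4.84 TPM in the larger part, and Tgm4 was at least 10 TPM in 78 of its 79 libraries. The 8 summed secretory transcripts that define prostate had a median of 10002 TPM in the larger part and of 65.7 TPM in the smaller part, where the labelled tissue is thus weakly marked. The 20 largest genes took from 48.9% to 81.8% of the TPM of a library, a share that can move every other gene of that library. TPM was therefore set beside median-of-ratios values, which divide each library by a factor. That factor ran from -1.3 to 0.724 on the log2 scale, and a negative one raises the values of its library. The library labelled W1154 stood apart within the larger part, with 0.03 TPM of Krt15, 0.64 TPM of Tgm4 and 48.11 TPM of Krt7. The 6 libraries labelled W5000 to W5005 also stood apart there, singled out after their values were seen: Krt8 was 77.97 to 98.39 TPM (5 of them the lowest of the larger part), Krt17 0.2 to 0.62 TPM, Mki67 0.39 to 0.93 TPM and Krt15 22.9 to 145.76 TPM. Several results that rest on them are given with and without them, but values of single listed genes are given only with them.

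In the larger part, 9 of the 10 genes reached 1 TPM in at least 75 of the 79 libraries, and Krt17 in 57. Krt5 ranged from 1.09 to 30.58 TPM with a median of 6.41, Krt14 from 1.04 to 20.64 TPM with a median of 6.84, and Krt15 from 0.03 to 145.76 TPM with a median of 18.12. Trp63 ranged from 0.3 to 6.64 TPM with a median of 2.23 and reached 1 TPM in 75 of 79 libraries. The highest values of the basal genes came together: W5001 had 30.58 TPM of Krt5, 145.76 TPM of Krt15 and 6.16 TPM of Trp63, W4360 had 27.59, 82.98 and 6.64 TPM of these genes, and W5003 had 26.99, 93.57 and 6.08 TPM. Krt14 did not share this top, since those libraries held 3.69, 6.11 and 6.24 TPM of it and its highest values were in W4426 (20.64 TPM) and W4434 (19.56 TPM).

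Krt5 followed Trp63 more closely than any other keratin did. Over the 79 libraries their Pearson r on the log2 scale was 0.83 (permutation p = 1e-05, the smallest that the permutations can give) and their Spearman rho 0.76 (permutation p = 1e-05). Their limma fit had an adjusted p of 5.62e-17. Without W5001 and W4360, the libraries farthest from the median of Krt5, r was 0.79, and on median-of-ratios values it was 0.84. Krt15 was related to Krt5 with an r of 0.69 (rho 0.63, permutation p = 1e-05 for each, r = 0.62 without W5001 and W4360) and to Trp63 with an r of 0.55 (permutation p = 1e-05, rho 0.42, permutation p = 0.0002). Without W5000 to W5005 the r of Krt5 with Trp63 was 0.80. Krt14 was related to Krt5 with an r of 0.51 (rho 0.51, permutation p = 1e-05 for each), or 0.63 without W5001 and W4360. Krt17, grouped with the basal keratins by its usual place, had an r of -0.10 with Krt5 (permutation p = 0.393) and -0.21 with Trp63 (permutation p = 0.0681). Its r with Krt8 was 0.72 (rho 0.77, permutation p = 1e-05 for each), and 0.82 without W4183 and W1154. Over the 218 p-values of r and rho computed in the larger part, raw p-values up to 0.0184 on TPM and 0.0216 on median-of-ratios values stayed under 0.05 after Benjamini-Hochberg adjustment, and in the smaller part, with 414 p-values, those up to 0.0193 on TPM.

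**Figure D2:**
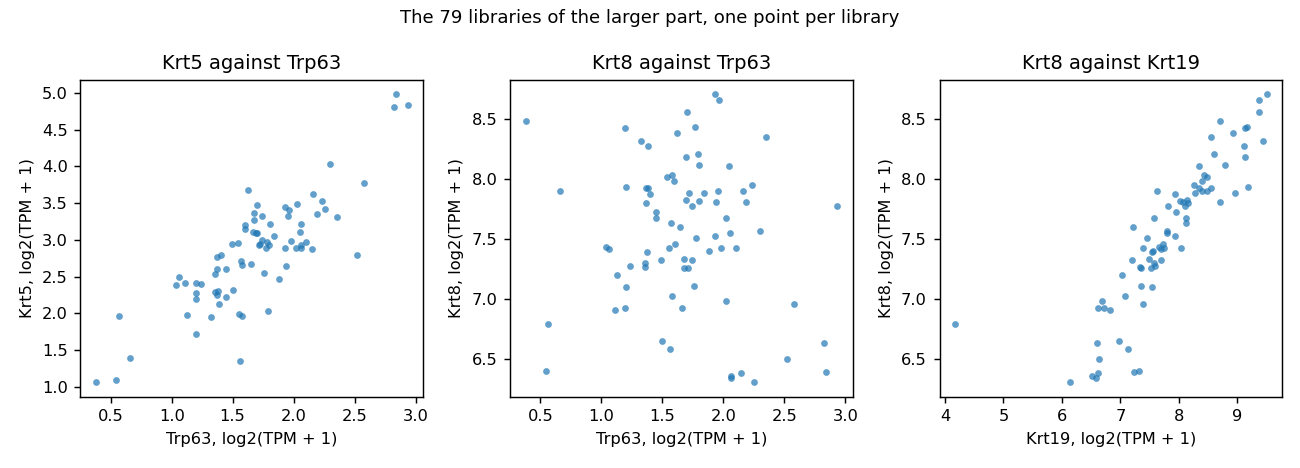
Krt5 against Trp63, Krt8 against Trp63, and Krt8 against Krt19 in the 79 libraries of the larger part, both axes on the log2(TPM + 1) scale, 1 point per library. Krt5 rises with Trp63 (r = 0.83) and Krt8 with Krt19 (r = 0.87), while Krt8 and Trp63 show no common slope on TPM (r = -0.12).

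The luminal keratins followed one another on TPM. In the larger part Krt8 ranged from 77.97 to 416.83 TPM (median 188.77), Krt18 from 110.3 to 534.73 TPM (median 335.95) and Krt19 from 17.06 to 726.73 TPM (median 221.32). Krt8 and Krt19 had an r of 0.87 and a rho of 0.95 (permutation p = 1e-05 for each), and on median-of-ratios values an r of 0.70. Leaving out the 2 libraries farthest in Krt8 gave an r of 0.86. Krt4, which ranged from 0.31 to 191.97 TPM, followed Krt19 with an r of 0.82 (rho 0.83, permutation p = 1e-05 for each), and 0.73 on median-of-ratios values. W4173 held the highest Krt8 (416.83 TPM), Krt19 (726.73 TPM) and Krt4 (191.97 TPM) of the larger part. Krt18 itself fell into 15 lower libraries, up to 224.7 TPM, and 64 higher ones, from 245.27 TPM, so its r with the other members is given within the 64, while limma calls and the most similar genes below use all 79. Among the 64, Krt8 and Krt18 had an r of 0.63 (rho 0.63, permutation p = 1e-05 for each) on TPM and 0.39 on median-of-ratios values (permutation p = 0.00135). Krt18 and Krt19 had an r of 0.51 there on TPM (permutation p = 4e-05). On median-of-ratios values it was -0.05 (permutation p = 0.693), so that this pair was related on TPM only. The ratio of Krt18 to Krt8 had a median of 1.73 in the larger part (0.801 to 2.7), and the type II share of the 9 summed keratins stayed between 21.5% and 40.3%.

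Trp63 was not called with Krt8 or Krt19 on TPM and was negative with both on median-of-ratios values. Of the basal keratins, Krt14 and Krt17 were called positive with luminal ones, whereas Krt5 and Krt15 were not. Of the 15 pairs of a basal with a luminal gene, 5 were called positive and 0 negative in limma on TPM, and 5 positive and 3 negative on median-of-ratios values. The r of Krt14 with Krt8 was 0.42 on both scalings. Krt8 and Trp63 had an r of -0.12 on TPM (permutation p = 0.281) and -0.45 on median-of-ratios values (permutation p = 5e-05). Krt19 and Trp63 moved likewise, from -0.01 on TPM (permutation p = 0.924) to -0.38 (permutation p = 0.00065), as did Krt17 and Trp63, from -0.21 to -0.41 (permutation p = 0.0003). Without W4183 and W1154 that last value was 0.02 on TPM and -0.26 on median-of-ratios values. The negative values were smaller without W5000 to W5005: on median-of-ratios values Krt8, Krt19 and Krt17 then had an r of -0.24, -0.23 and -0.26 with Trp63, none of them called (adjusted p = 0.122, 0.15 and 0.0876 in limma). Of the 45 pairs among the 10 genes, 24 passed an adjusted p of 0.05 in limma fits across all 14621 genes on TPM, all of them positive, against 19 positive and 5 negative on median-of-ratios values and 18 positive and 5 negative with the 20 largest genes removed. Without W5000 to W5005 there were 26 positive and 0 negative pairs on TPM, and 16 positive and 0 negative on median-of-ratios values. Shares of all genes were tallied only with these libraries included. The share of all genes called against a member on TPM was 6.52% for Krt5, 12.3% for Krt15, 19.2% for Krt14, 25.7% for Trp63, 59.4% for Krt7, 62.2% for Krt17, 66.7% for Krt18, 76.3% for Krt8, 78.2% for Krt4 and 79.6% for Krt19, so a call against a luminal keratin was the usual outcome for any gene and one against Krt5 was not. Krt5 was called with Krt14, Krt15, Krt7 and Trp63, 4 of 9 members.

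**Figure D3:**
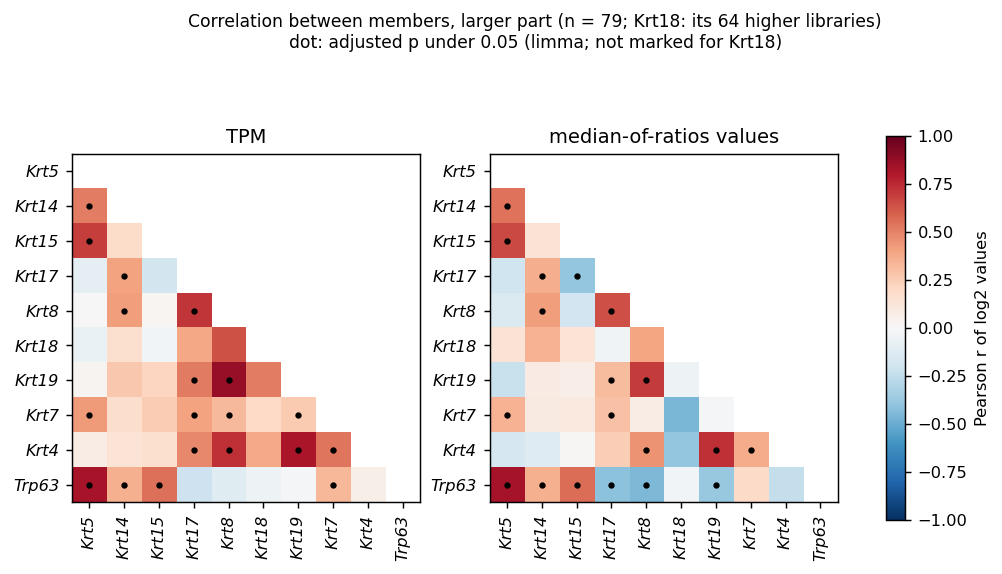
Pearson r between the 10 genes in the larger part, on TPM (left) and on median-of-ratios values (right), over 79 libraries, or over the 64 libraries with higher Krt18 for its pairs; dots mark an adjusted p under 0.05 in limma. Krt5 is called with Krt14, Krt15 and Trp63 in both panels and Krt14 with Krt15 in neither, whereas the pairs of Trp63 with Krt8, Krt17 and Krt19 are pale on TPM and blue on median-of-ratios values.

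Against Mki67, the larger part divided the 10 genes in a way that did not follow the basal and luminal names alone. Mki67 ranged there from 0.39 to 25.73 TPM. On TPM, 7 of 10 genes were called, all positive, beside 74.3% of all genes (72.9% positive). On median-of-ratios values, 4 were positive and 3 negative beside 42% of all genes (22% positive and 19.9% negative), and with the 20 largest genes removed the split was the same. Krt8, Krt19, Krt4 and Krt17 were positive under each scaling. Their r with Mki67 on TPM was 0.78, 0.76, 0.73 and 0.68 (rho 0.81, 0.84, 0.75 and 0.76, each with a permutation p of 1e-05), and on median-of-ratios values 0.60, 0.63, 0.59 and 0.59. Without W4181 and W4126, the libraries farthest in Mki67, the same values on TPM were 0.79, 0.75, 0.72 and 0.67. Trp63, Krt5 and Krt15 were the 3 negative genes, with an r of -0.48, -0.39 and -0.39 on median-of-ratios values (permutation p = 1e-05, 0.00024 and 0.00036) and of -0.14, -0.15 and -0.14 on TPM, where none was called. Without W5000 to W5005 only Trp63 stayed called among these 3 on median-of-ratios values (r = -0.28, adjusted p = 0.0406 in limma), with -0.22 for Krt5 and -0.21 for Krt15, and Krt7 joined the positive genes (0.35). Krt14 and Krt7 were called on TPM (r = 0.38 and 0.35) and not on median-of-ratios values (r = 0.22 and 0.17). Krt18, in its 64 higher libraries, went from an r of 0.38 on TPM (permutation p = 0.00176) to -0.26 (permutation p = 0.0339, which did not pass the adjustment). The extent of the TPM shift was itself related to these genes: the log2 factor between the scalings had an r of 0.61 with Mki67, 0.68 with Krt8 and 0.73 with Krt19, and 0.13 with Krt5.

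Against Tgm4, Krt7 was negative and Krt18 depended on the scaling. Tgm4 spanned 0.64 to 16894.66 TPM in the larger part. On TPM 4 of 10 genes were called, 2 in each direction (Krt18 among them), beside 38.8% of all genes. Krt7 had an r of -0.44 and a rho of -0.58 (permutation p = 3e-05 and 1e-05), and -0.33 without the 2 libraries farthest in Tgm4. Krt7 kept its sign on median-of-ratios values (r = -0.46). Krt17 was the other negative gene (r = -0.35, permutation p = 0.00236), but its rho of -0.21 had a permutation p of 0.0594. Krt15 was positive (r = 0.31, permutation p = 0.00665, rho 0.16, permutation p = 0.147), so that on TPM its relation was not seen in the ranks. On median-of-ratios values it was seen in both (r = 0.40, permutation p = 0.0004, rho 0.31, permutation p = 0.00533). Krt4 had an r of -0.23 and a rho of -0.50 (permutation p = 3e-05 for rho). Krt18 over its 64 higher libraries had an r of -0.06 on TPM (permutation p = 0.656) and of 0.53 on median-of-ratios values (permutation p = 1e-05).

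Chga was low throughout the larger part and separated into 72 libraries of up to 0.81 TPM and 7 from 1.19 TPM. On TPM the limma fit over all 79 called 4 of 10 genes, all positive (Krt5, Krt15, Krt7 and Trp63), beside 18.7% of all genes (18.5% positive). On median-of-ratios values 7 were called, the same 4 positive and Krt17 (r = -0.31), Krt8 (-0.35) and Krt18 negative, beside 21.1% of all genes (9.77% positive and 11.3% negative). Without W5000 to W5005, 4 were called on TPM and 0 on median-of-ratios values by limma (2 at an unadjusted p of 0.05). Shares of all genes were not tallied for that setting. W4360 and W5001, which held the highest Trp63 and Krt5, were among the 7, with 3.56 and 2.76 TPM of Chga. Within the 72 libraries the r of Krt5, Krt15, Krt7 and Trp63 with Chga was 0.18, 0.25, 0.16 and 0.23 (permutation p = 0.133, 0.0296, 0.181 and 0.0505) on TPM, none of which passed the adjustment. On median-of-ratios values, 4 genes passed it by r within the 72. Krt15 and Trp63 were positive (r = 0.30 for each, permutation p = 0.0106 and 0.0114), and Krt17 and Krt8 were negative (r = -0.37 and -0.28, permutation p = 0.00116 and 0.0184). Krt19 passed it by rho only (rho -0.31, permutation p = 0.00778, r = -0.24, permutation p = 0.0445). W5005 and W5000 were the 2 of these libraries farthest in Chga. Without them the r of Krt15, Trp63, Krt17 and Krt8 was 0.199, 0.165, -0.306 and -0.193.

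Genes most like each member in the larger part were taken by r from all genes over the filter outside the 10. Jag2, a Notch ligand, came first for Trp63 (r = 0.88) and for Krt5 (0.84), and again on median-of-ratios values (0.88 and 0.86). Hhip, a Hedgehog-binding protein, and Ltbp4, which binds latent TGF-beta, were next for Trp63 (0.78 and 0.78). Krt15 was most like Wfdc1 (0.65), Krt14 like Tead2, a factor of the Hippo pathway (0.69), and Krt17 like Traip (0.79), Rfc3 (0.78) and Cdc45 (0.78), 3 genes of DNA replication or its repair. Krt19 was most like Itga3, an integrin subunit (0.92), Krt7 like Wfdc2 (0.89) and Krt8 like Impdh2, an enzyme of guanine nucleotide synthesis (0.93). Krt18 was most like the tight junction genes Cldn4 (0.92) and Ocln (0.91) and the epithelial sorting adaptor Ap1m2 (0.91), over all 79 libraries including its 15 lower ones. These values are over 79 libraries, were chosen for their size and carry no test.

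The listed basal genes followed Trp63 and Krt5 in part. Of 14 basal genes over the filter, 8 were positive with Trp63 and 0 negative on TPM in limma, beside 25% of all genes positive, and their median r was 0.32 against 0.14 for all genes. On median-of-ratios values 7 were positive and 2 negative (16.2% and 25% of all genes). Jag2 (r = 0.88), the water channel Aqp3 (0.58) and Cav1 (0.57) were the highest for Trp63. The desmosomal cadherin Dsc3 was the lowest on TPM (r = -0.22, adjusted p = 0.144 in limma). With Krt5, 7 of the 14 were positive on TPM and 0 negative beside 6.42% of all genes positive, among them Jag2 (0.84), Aqp3 (0.65) and Lamb3 (0.59), with Itga6 the lowest (r = -0.12, not called). Of 19 luminal and general epithelial genes, 0 were positive and 1 negative with Trp63 on TPM (0.752% of all genes negative), and 10 were negative on median-of-ratios values (25% of all genes negative), where Epcam (r = -0.71), Cdh1, which encodes E-cadherin (-0.58), and Elf3 (-0.52) were the lowest. On TPM that single gene was Epcam (r = -0.295, adjusted p = 0.0331 in limma). These values are not given without W5000 to W5005. W5003, from that set, had the lowest Epcam of the larger part (43.96 TPM).

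With Krt8, 18 of the 19 luminal and epithelial genes were positive on TPM in the larger part, beside 75% of all genes, with a median r of 0.80 against 0.51 for all genes, and 14 were positive and 0 negative on median-of-ratios values, with a median r of 0.56 against 0.08. Spint1, a protease inhibitor of epithelial membranes, was the highest (0.92 on TPM and 0.86 on median-of-ratios values), followed by Cldn7 (0.91) and the protease St14 (0.90). Of 11 plakin, desmosome and p53-family genes, 10 were positive with Krt8 on TPM, led by Jup, which encodes plakoglobin, and 8 on median-of-ratios values. The 14 basal genes had 8 positive and 0 negative on TPM but 3 positive and 5 negative on median-of-ratios values (35.5% and 23.7% of all genes there), where Dst (r = -0.47), Ngfr (-0.34) and Jag2 (-0.33) were the lowest.

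Urothelial transcripts were related to some of these keratins in the larger part, as they were to most genes: 78.3% of all genes were called with the uroplakin sum (77.8% positive). The 6 uroplakin genes, markers of bladder lining, summed to 1.81 to 356.3 TPM over the 79 libraries, and the highest sum was in W4360, the library with the highest Trp63 and Krt7. The sum had an r of 0.70 with Krt19, 0.68 with Krt4 and 0.58 with Krt8 (rho 0.62, 0.68 and 0.62, permutation p = 1e-05 for each), 0.49 with Krt15 (permutation p = 3e-05) and 0.23 with Trp63 (rho 0.11, permutation p = 0.343 for rho). Single uroplakins divided: Upk3a and Upk2 were called with Krt5 (r = 0.62 and 0.60) and with Trp63 (0.55 and 0.58), whereas Upk1b was called with Krt8 (0.67) and not with Krt5 (0.10) or Trp63 (0.03). The 8 summed stromal transcripts had an r of 0.51 with Trp63 and 0.49 with Krt19 (rho 0.43 and 0.47), and 85.2% of all genes were called with it. Trp63 was also related to the summed markers of neuroendocrine cells (r = 0.59, rho 0.58), endothelium (0.55, rho 0.63) and seminal vesicle (0.42, rho 0.43), with which 71.7%, 79.6% and 1.9% of all genes were called, and Krt17 to those of immune cells (0.59, rho 0.67, beside 81.8% of all genes). The part of these tissues in the keratin levels was not tested. Of the 10 neuroendocrine markers, 2 had a median of at least 1 TPM in the larger part, and the sum of the 10 had a median of 9 TPM. Insm1, 1 of them, stayed under 0.1 TPM in all 79 libraries, so that sum is not a measure of neuroendocrine cells there.

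In the smaller part, Krt5, Krt14, Krt15 and Trp63 were under 1 TPM in most libraries, while Krt8, Krt18 and Krt7 ranged from near 0 to the highest values of the series. Krt17 differed from the other basal genes, at 1 TPM or above in 15 of the 36 libraries and at 10 TPM or above in 5. Trp63 ranged from 0 to 0.93 TPM and reached 1 TPM in 0 of 36 libraries, and Krt5 had a median of 0.065 TPM and reached 1 TPM in 4 (W1790 with 3.36, W407 with 3.24, W4517 with 2.51 and W4419 with 1.54 TPM). Krt14 also reached 1 TPM in 4 libraries and Krt15 in 5. The median of Krt8 was 3.395 TPM, and it was at or above 10.84 TPM in 16 libraries and at or below 4.15 TPM in 20. Krt18 had a median of 6.685 TPM, Krt19 of 1.43 TPM and Krt7 of 0.465 TPM. The lowest Krt8 of the series, 0.14 TPM in W1103, and the highest, 630.5 TPM in W1050, both lay here. The 9 keratins summed to 0.92 TPM in W4180 and to 1826.93 TPM in W1050.

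The 4 libraries of the smaller part with the lowest Chga were the 4 with the highest Krt8 and the 4 with the highest Krt18. W1050 held 630.5 TPM of Krt8 and 748.89 TPM of Krt18, W1790 held 525.95 and 571.62 TPM, W1118 held 465.63 and 640.96 TPM, and W1915 held 368.98 and 355.23 TPM. Chga was 1.15, 2.55, 0.15 and 1.23 TPM in these libraries and from 21.15 to 479.05 TPM in the other 32. Krt17 was 35.99, 55.37, 54.71 and 9.42 TPM there, against at most 20.72 TPM (W4417) elsewhere in the smaller part, and Krt7 was 174.61, 189.65, 137.43 and 99.42 TPM. Trp63 stayed between 0.01 and 0.4 TPM in the 4, and Mki67 lay between 54.67 and 74.05 TPM, inside the range of 20 to 144.47 TPM of the others. Summed stromal markers were 394.76 to 1499.8 TPM in the 4, summed immune markers 284 to 807.2 TPM and summed endothelial markers 18.8 to 49.94 TPM, against medians of 179.8, 135.55 and 10.26 TPM over the smaller part, and the part of these cells in the keratin levels was not tested. These libraries were singled out after their values were seen, and no test is given.

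High Krt8 was not limited to libraries with little Chga. W1182 held 286.83 TPM of Krt8, 203.26 TPM of Krt7 and 283.58 TPM of Chga, and W370 held 310.51, 140.43 and 115.2 TPM of the same genes. Krt18 did not keep pace in these libraries, at 76.42 TPM in W1182 and 89.35 TPM in W370. The ratio of Krt18 to Krt8 ran from 0.175 in W4120 to 8.43 in W353 over the smaller part, and the type II share of the 9 keratins from 11.8% in W353 to 86.3% in W1182.

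**Figure D4:**
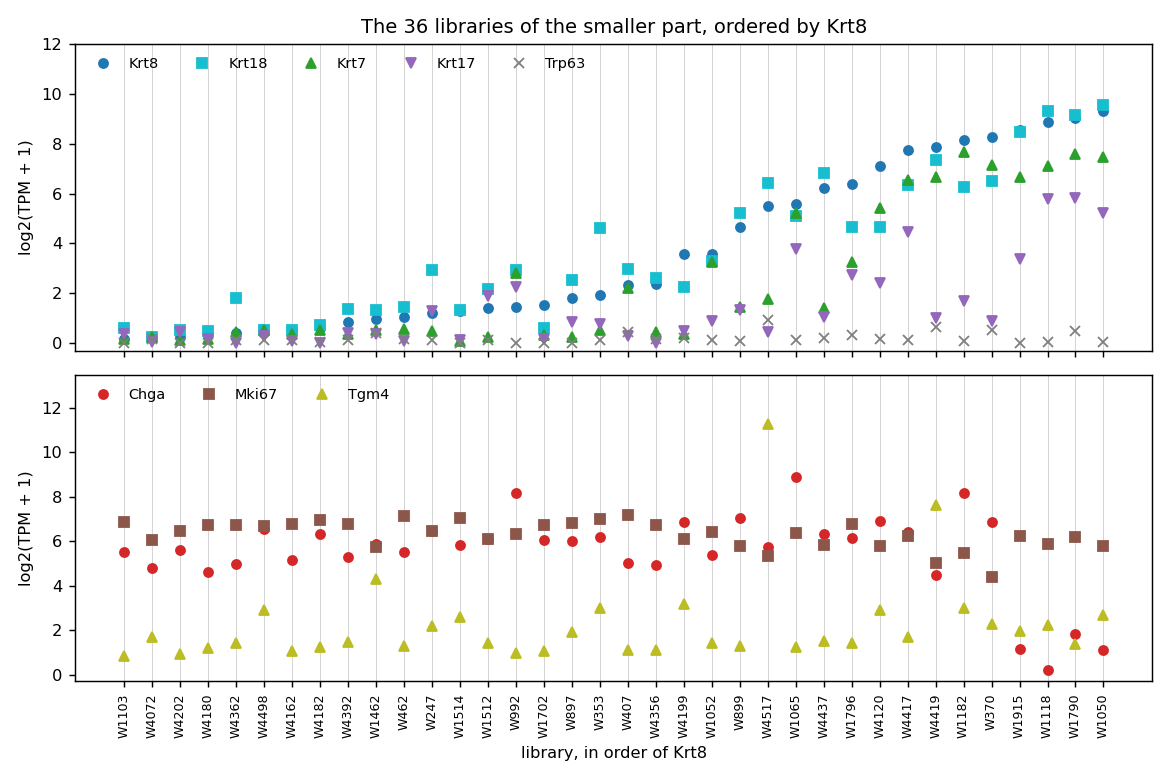
Krt8, Krt18, Krt7, Krt17 and Trp63 (top) and Chga, Mki67 and Tgm4 (bottom) in the 36 libraries of the smaller part on the log2(TPM + 1) scale, ordered by Krt8. Trp63 stays near 0 across the row, and the 4 libraries at the right end, with the highest Krt8, have the lowest Chga.

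Krt8 and Krt18 moved together at both levels of Krt8 in the smaller part. Of the 10 genes, 7 separated into lower and higher libraries there, so r is given within those. Among the 16 libraries with higher Krt8, Krt8 and Krt18 had an r of 0.87 and a rho of 0.82 (permutation p = 2e-05 and 0.00015), and among the 20 with lower Krt8 an r of 0.77 and a rho of 0.79 (permutation p = 0.00011 for each), or 0.76 and 0.77 without the 2 libraries farthest in Krt8. Krt8 and Krt7 had an r of 0.88 in the 16 (rho 0.88, permutation p = 1e-05 and 2e-05) and of 0.40 in the 20 (permutation p = 0.0674). Krt8 and Krt17 had an r of 0.65 in the 16 (permutation p = 0.0079), while Krt8 and Trp63 had an r of -0.02 there (permutation p = 0.934). Whether r differs between the 2 levels, or between the parts, was not tested. In limma fits over the 36 libraries 28 of the 45 pairs were called, all positive, on TPM and on median-of-ratios values, beside shares of all genes on TPM of 0.678% for Krt5, 3.89% for Trp63, 6.62% for Krt15, 36.2% for Krt14, 50.2% for Krt7, 53.8% for Krt4, 54.1% for Krt17, 55.6% for Krt8, 60.1% for Krt18 and 60.2% for Krt19.

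Relations to Mki67 in the smaller part were negative where called. Over the 36 libraries 7 of 10 genes were called on TPM and 9 on median-of-ratios values, all negative, beside 44.9% of all genes on TPM (21.6% negative) and 61.9% on median-of-ratios values (38.3% negative). Krt18, which did not separate, had an r of -0.59 and a rho of -0.53 (permutation p = 0.00022 and 0.00089), and Krt4 of -0.57 and -0.70 (permutation p = 0.00057 and 3e-05). Without W370 and W4419 their r was -0.57 and -0.58. The 8 summed proliferation markers, Mki67 among them, did not repeat most of these calls. Limma called Trp63 and Krt15 with that sum, both negative, and no other member, beside 19.6% of all genes (3.29% negative). Krt18 and Krt4 had an r of -0.23 and -0.38 with it (adjusted p = 0.342 and 0.0756 in limma). Krt8 had an r of -0.29 with Mki67 among its 16 higher libraries and of 0.25 among its 20 lower ones (permutation p = 0.286 and 0.295), so that the relation was not detectable within either level. Stromal transcripts, which summed to 3.12 to 1499.8 TPM in these libraries, had an r of 0.73 with Krt18 (rho 0.77, permutation p = 1e-05 for each) and 0.61 with Krt4. The part of stroma in these relations was not tested.

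Against Chga the limma fit over the 36 called 5 of 10 genes negative on TPM, beside 34.1% of all genes (24.2% negative). Krt18 had an r of -0.43 (permutation p = 0.00877) but a rho of -0.01 (permutation p = 0.96). With the 4 libraries named above left out, a setting for which shares of all genes were not tallied, 1 of 10 genes was called. It was Krt17, with an r of 0.62 in place of -0.45 (adjusted p = 0.00702 in limma). The calls of Krt14, Krt18, Krt19 and Krt4 were lost, with an r of -0.15, 0.38, 0.05 and 0.09.

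Tgm4 and the basal genes met in 2 libraries of the smaller part. W4517 held 2469.33 TPM of Tgm4 with 0.93 TPM of Trp63, 2.51 TPM of Krt5 and 5.03 TPM of Krt15, and W4419 held 195.39 TPM of Tgm4 with 0.59, 1.54 and 15.47 TPM of these genes. No other library of the 36 had more than 18.71 TPM of Tgm4. On TPM 2 of 10 genes were called with Tgm4 in limma (Trp63 and Krt15, both positive), beside 2.7% of all genes, and 0 were called by limma without W4517 and W4419 (0 also at an unadjusted p of 0.05). W4419 also held the highest uroplakin sum of the smaller part, 109.08 TPM, and the highest Krt4, 42.31 TPM. Shares of all genes were not tallied for fits without W4517 and W4419. Without these 2 libraries, listed genes related to Trp63 numbered 0 (5 at an unadjusted p of 0.05) and to Krt5 3. Over the 36 libraries they numbered 9 of 52 and 7 of 52, beside 3.89% and 0.678% of all genes. All 4 uroplakin genes over the filter were among those called with Krt5.

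Most of the listed epithelial genes were positive with Krt8 in the smaller part. Of 19 luminal and epithelial genes, 15 were positive and 2 negative on TPM and on median-of-ratios values, beside 40.2% of all genes positive and 15.4% negative on TPM, with a median r of 0.78 against 0.24 for all genes on TPM. Esrp1, an epithelial splicing factor, had the highest r (0.96). Hoxb13 (-0.58) and Foxa1 (-0.57), transcription factors of prostate lineage, were the negative pair. Of 14 basal genes, 12 were positive and 1 negative on TPM (10 and 1 on median-of-ratios values), with Perp the highest (0.87) and Dst, which encodes dystonin, the lowest (-0.66). Of the 11 plakin, desmosome and p53-family genes, 9 were positive, with Pkp2 (0.94) the highest and Trp53 (0.33, not called) the lowest. Since Krt8 itself separated into 16 and 20 libraries, these values describe the contrast between them as much as a slope.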

How the data were processed

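RNA was sequenced from 1 prostate library per label after depletion of ribosomal RNA. The authors trimmed reads, aligned them with Bowtie2 2.2.5 to a transcriptome holding C57BL/6 and WSB variants and quantified them with RSEM 1.2.20 (CASAVA 1.8.2 upstream; GRCm38), and deposited TPM values per gene; sequencing depth cannot be read from TPM, so no counting interval is given, and p-values measure the spread between libraries. No column was left unmapped (0). Here, log2(TPM + 1) was used for 14623 genes, those whose mean reached 1 TPM. Relations were fitted per part of the libraries with limma 3.58.1 (R 4.3.3), Benjamini-Hochberg adjusted over all genes, and checked on simulated data, and single values were tested by 100000 two-sided permutations of libraries. A part or gene was taken as separating where a 2-component mixture lowered the BIC by over 10, with Ashman's D over 2 and at least 6 libraries on each side; r is given for sides of 10 or more. Median-of-ratios values divide each library by the median ratio to a geometric mean library. Named genes were the 10 members, the 3 reference genes, the 3 genes most like each member, the highest and lowest of each list, and the libraries at a member's extremes; other genes and libraries were chosen after their values were seen. Some genes that this rule names are not reported here. The members and lists were chosen with earlier results of these data known. Gene positions came from GENCODE release 21 for mouse (GRCm38), copies from blastn 2.17.0 (at least 95% identity over 200 bases) and promoter sequences from RefSeq, which held 5 of the 10 genes; the Krt14 window lies inside the GENCODE gene and was not used.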

Additional observations from a re-analysis of the deposited data

How the results depend on the processing

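No paired analysis was possible because there is only 1 group of mice. Of the 9 steps in the order of levels, 8 passed with a pseudocount of 0.1 and 6 under the other settings tried, and 10 of 10 medians stayed at 1 or above under both other scalings. Leaving out W78022, labelled like W7822, and using a pseudocount of 0.1 moved no count by over 1.5 times. W78022 lies in the larger part, so its removal could not move a count of the smaller part. Dividing the libraries on all genes gave the same 2 parts and could move no count. For single relations to Chga, Mki67 and Tgm4 and single medians, 637 of 740 values under other settings were counted as unchanged. Among these, called relations kept direction and call, and medians stayed within the spread. A relation not called at first counted as unchanged even where its sign turned. Krt19 with Chga in the larger part was such a case (r = 0.08 on TPM, -0.15 on median-of-ratios values). The 637 also hold 60 values from the division on all genes, which could not change. They further hold the values of a part that lost no library, which could not change either. These were values of the smaller part without W78022, and of the larger part without W4419 and W4517 or without W1050, W1118, W1790 and W1915.

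Median-of-ratios scaling and TPM without the 20 largest genes each gave 7 members related to Chga in the larger part in place of 4. Of all genes, 21.1% and 19.5% were called with Chga in place of 18.7%. Listed genes related to Trp63 numbered 28 and 22 in place of 14, beside 41.2% and 39.4% of all genes in place of 25.7%. Shares of all genes were not tallied for the settings that follow, so those counts cannot be set against them. With no filter, 31 and 25 listed genes were called with Trp63 and Krt5 in the larger part, and 3 members with Chga in the smaller. On ranks, 2 members in the larger and 0 in the smaller part were called with Chga, and 0 members with Tgm4 and 0 listed genes with Trp63 or Krt5 in the smaller by limma, where an unadjusted p of 0.05 gave 0, 6, 26 and 28; Krt17 and Krt4 turned to 0.171 and 0.022 with Chga there.

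With log2 Epcam as a covariate, listed genes in the larger part numbered 32 with Trp63, 30 with Krt5 and 20 with Krt8, and the slope of Krt18 on Mki67 turned to -0.116. In the smaller part it left 0 members with Chga (2 at an unadjusted p of 0.05), 1 with Mki67, 11 pairs and 8 listed genes with Krt8. With the stromal index as a covariate, the larger part gave 1 member with Chga, 7 with Tgm4 and 25 listed genes with Trp63, and the smaller part 1 member with Chga, 3 with Mki67, 15 pairs, and 5 and 3 listed genes with Trp63 and Krt5. The cause was not tested.

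The 3 sets of libraries left out next were chosen after seeing the data. Without W4419 and W4517 the smaller part gave 0 members with Tgm4 (Krt15 at -0.169), and 0 and 3 listed genes with Trp63 and Krt5. Without W1050, W1118, W1790 and W1915 it gave 1 member with Chga, 5 with Tgm4 and 26 listed genes with Trp63, and Krt19, Krt18, Krt17 and Krt4 turned to 0.0456, 0.377, 0.624 and 0.0926 with Chga. Without W5000 to W5005 no count moved by over 1.5 times on TPM, and on median-of-ratios values the larger part gave 0 members with Chga (2 at an unadjusted p of 0.05), 7 with Tgm4, 22 listed genes with Trp63 and 24 with Krt5, and Krt18 turned to -0.126 with Mki67.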

Other observations

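Of 45 other keratins in the table, Krt23 was the only one with a median of at least 1 TPM (18.57 TPM, 0 to 98.8). Krt23, a type I keratin of simple epithelium, was highest in W1118 (98.8 TPM) and W1050 (69.62 TPM), 2 of the 4 libraries with the highest Krt8. Its r with Krt8 was 0.59 in the larger part, and with Trp63 it was -0.37 (adjusted p from limma under 0.05 for both). Krt78 also passed the filter, with a median of 0.65 TPM and a highest value of 22.67 TPM. Krt20, a keratin of umbrella cells in bladder, reached 9.65 TPM, and Krt6a, a keratin of activated squamous epithelium, 6.79 TPM. Of 14 squamous genes only Sprr1a and Sbsn passed the filter, and Sprr1a was called with Krt5 in both parts. Trp73, a further p53-family gene, reached 5.21 TPM with a median of 0.07 TPM.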
